A study of Mus musculus with 14 samples.

Results

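S9-SCA-1+ cells are the cells of the early mouse forelimb bud that carried the surface antigen SCA-1 but neither SOX9 nor JAG1. Per the study's text they were sorted from PDGFRα-positive cells, a gate that their labels do not list. Here they were set against the S9-Pαhi limb bud mesenchymal progenitors (LMPs), which lacked SOX9, JAG1 and SCA-1 and carried high levels of PDGFRα. The members were the samples whose labels give these populations at E10.5, namely 2 S9-SCA-1+ samples (replicates 2 and 3) and 3 S9-Pαhi samples (replicates 1 to 3), 5 of the 14 samples in all. Both populations were sorted by flow cytometry from forelimbs of embryos whose Sox9 allele carries an IRES-EGFP reporter, after removal of dead cells (7AAD-) and of cells positive for CD31, Ter119, CD45, EpCam, Gr1 or CD11b. The other 9 samples are the JAG1+ progenitors, the SOX9+ osteochondrogenic progenitors and the chondroblasts of the same study, and they enter only the shared estimate of the spread and the comparison of levels. Poly(A)+ RNA was sequenced and read counts per gene are given as CPM, the count scaled to a common library total. Replicates are called biological by the study, but the labels do not say which embryos each sample came from, so the p-values measure the spread between these samples.

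The muscles of the limb do not arise in the limb bud itself. Their progenitors delaminate from the lateral dermomyotome of the somites under the control of PAX3, migrate into the bud with the help of the receptor MET, whose ligand HGF is made by the limb mesenchyme, and of LBX1 and CXCR4, and start the myogenic factors MYF5 and MYOD once they have settled. The limb mesenchyme derives from the lateral plate, expresses PRRX1, TBX5 and the 5′ HOX genes, and responds to SHH, FGF, WNT and BMP signals from the bud's organisers.

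Of the 4 genes taken as markers of the populations, Pax3, Lbx1 and Met were higher and Pdgfra was lower in S9-SCA-1+ cells. Pax3 (Entrez 18505, chromosome 1, 78101267 to 78197136, GRCm38) was at 428 and 498 CPM in the S9-SCA-1+ samples and at 0.529, 0.978 and 0.797 CPM in the S9-Pαhi samples (log2 fold change 9.22 ± 0.40 SE; edgeR quasi-likelihood test, Benjamini-Hochberg adjusted p = 1.4e-09). Lbx1 was at 263 and 233 CPM against 0.651, 0.564 and 0.648 CPM (log2 fold change 8.64), and Met at 719 and 660 CPM against 4.27, 5.15 and 3.44 CPM (log2 fold change 7.32). Pdgfra was at 44.8 and 24.0 CPM against 437, 530 and 360 CPM, so that 7.77% of the S9-Pαhi mean remained. For none of the 4 did the groups overlap. Ly6a, which encodes SCA-1, was at 3.36 and 3.10 CPM against 0.203, 0.188 and 0.299 CPM, Sox9 at 14.7 and 7.41 CPM against 64.3, 57.2 and 65.5 CPM, and Jag1 at 16.1 ± 0.119 CPM (SD, n = 2) against 11.8 ± 1.36 CPM (SD, n = 3). These antigens and Pdgfra, whose product was also required of the S9-SCA-1+ cells per the study's text, were used in the sort and are given as a description. Because the samples are bulk, fewer cells of a type and less RNA per cell cannot be told apart in any of the values here.

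Of 24454 genes, 15125 passed the filter on low counts and were tested. Calls needed a log2 fold change of 1.2 or more in size together with an adjusted p no higher than 0.1. By this rule 1594 genes were called, 750 higher (4.96% of those tested) and 844 lower (5.58%) in S9-SCA-1+ cells. The groups did not overlap for 54% of all tested genes, which includes all but 10 of the higher and 9 of the lower genes called. The median log2 fold change of all tested genes was 0.01. Genes were named by a fixed rule, and list members beyond it, among them Tbx5, Hand2, Shox2 and Ttn, were chosen after their values were seen. Large differences lay mostly on the S9-SCA-1+ side, where 170 genes had a log2 fold change of at least 4 against 47 genes at that distance on the S9-Pαhi side. For 462 of the 750 higher genes the S9-Pαhi mean was below 1 CPM, and 122 had at most 3 counts in each S9-Pαhi sample. Likewise, for 422 of the 844 lower genes the S9-SCA-1+ mean was below 1 CPM, and 104 had at most 3 counts in each S9-SCA-1+ sample. Both S9-SCA-1+ samples were above all 12 other samples of the series for 467 of the 750 higher genes and below all of them for 486 of the 844 lower genes, where the shares over all tested genes are 10.8% and 10.1%.

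**Figure D1:**
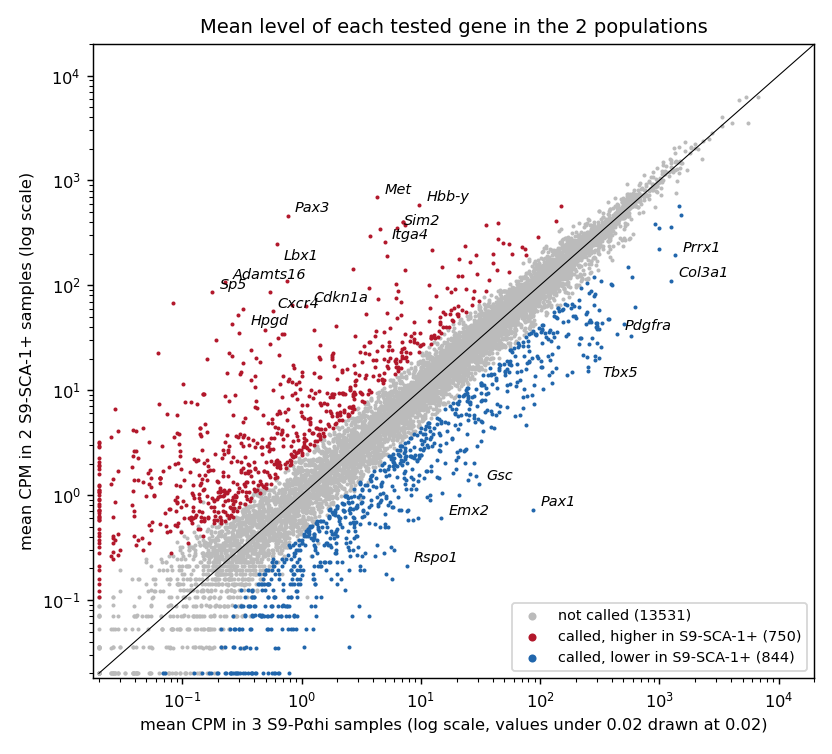
Mean CPM of each of the 15125 tested genes in the 3 S9-Pαhi samples (horizontal, log scale) and the 2 S9-SCA-1+ samples (vertical, log scale), with the 750 genes called higher in red, the 844 called lower in blue and the others in grey. The red points spread farther from the line of equal levels than the blue points, and Pax3, Lbx1, Sp5 and Adamts16 lie more than 8 log2 units above it.

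S9-SCA-1+ replicate 3 stood apart for the genes of red blood cells. All 11 tested markers of that list were called higher, and their summed level was 144 CPM in replicate 2, 4101 CPM in replicate 3, 9.85 to 52.5 CPM in the S9-Pαhi samples and 3.25 to 97.8 CPM in the rest of the series. The embryonic globin Hbb-y was at 40.7 and 1125 CPM against 14.0, 2.26 and 12.8 CPM, and Hba-x at 28.6 and 720 CPM against 10.7, 1.69 and 9.76 CPM. Without replicate 3, of the 11 only Slc4a1, the anion exchanger of the red cell membrane, was still called (log2 fold change 2.36, edgeR adjusted p = 0.046). Ter119, an antigen of red blood cells, was among those gated out, and the source of these transcripts was not tested. In all, 32 of the 750 higher genes were more than 4 times as high in replicate 3 as in replicate 2, and 1 gene, the chemokine Cxcl5 (4.02 and 0.712 CPM), was that much higher in replicate 2. For the remaining genes named below, those for which leaving out either sample ends the call are marked as such. Of the 750 higher genes 645 were also called without replicate 2 and 607 without replicate 3, and of the 844 lower genes 681 and 641. S9-Pαhi replicate 3 differed from the other S9-Pαhi samples in Pitx1, the hindlimb selector gene, at 38.2 CPM against 2.11 and 2.67 CPM, and in Hoxc10, at 7.92 CPM against 0 and 0.226 CPM (both chosen after their values were seen). In S9-SCA-1+ cells Pitx1 was at 4.76 and 10.4 CPM and Hoxc10 at 3.95 and 6.02 CPM, and neither was called. Without S9-Pαhi replicate 3 Hoxc10 was called higher (log2 fold change 5.36) and Pitx1 turned from -0.90 to 1.66 without a call.

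**Figure D2:**
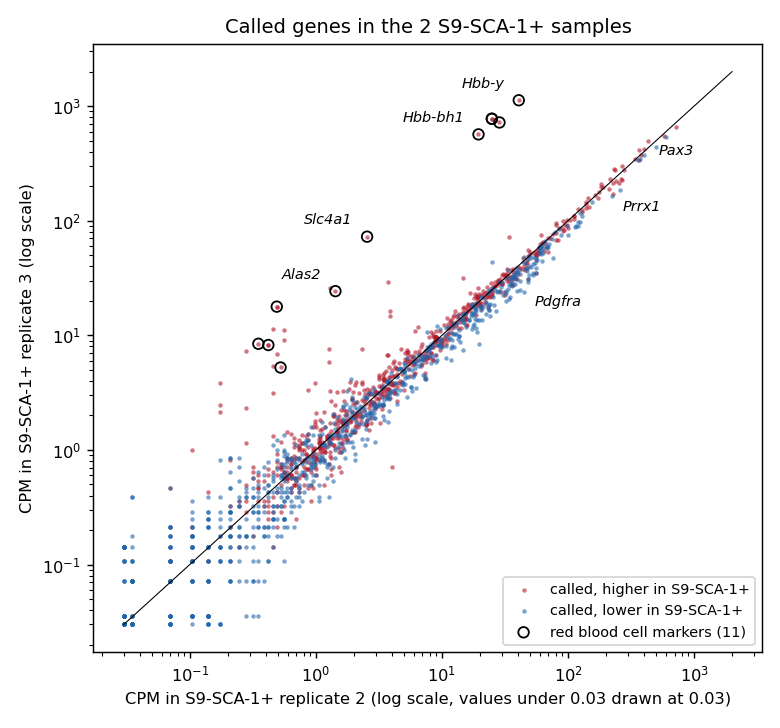
Level of the called genes in S9-SCA-1+ replicate 2 (horizontal) and replicate 3 (vertical), both in CPM on log scales, with genes called higher in red, genes called lower in blue and the 11 red blood cell markers circled. The circled genes lie far above the line of equal levels (Hbb-y at 40.7 and 1125 CPM), whereas Pax3 (428 and 498 CPM) lies near it and Pdgfra (44.8 and 24.0 CPM) below it.

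Markers of the other cell types that the sort could hold were summed as well. Endothelial markers summed to 28.1 and 32.8 CPM in S9-SCA-1+ cells and 27.3 to 35.9 CPM in S9-Pαhi LMPs. Of 13 tested endothelial markers, Kdr, a VEGF receptor, was called higher (6.09 and 10.9 CPM against 0.732, 1.99 and 1.05 CPM) and Erg, Flt1 and Sox18 lower, Flt1 not without S9-SCA-1+ replicate 2 or S9-Pαhi replicate 1. Of the 13 endothelial markers 7.69% were thus higher and 23.1% lower, against 4.96% and 5.58% of all tested genes. Of 12 leukocyte markers 1 passed the filter, and Ptprc, which encodes CD45, had at most 11 counts per sample. Markers of ectoderm summed to 6.37 and 5.48 CPM against 7.47 to 10.9 CPM, those of neural crest and glia to 17.8 and 17.6 CPM against 16.4 to 17.0 CPM, and those of neurons to 120 and 115 CPM against 142 to 176 CPM. Pericyte and smooth muscle markers were at 134 and 108 CPM against 267 to 295 CPM, with Mcam and Des called higher and Pdgfrb and Rgs5 lower. The part of such cells in the results was not tested. The list of known myogenic genes summed to 3032 and 3134 CPM against 249 to 381 CPM. Of its 19 tested members 15 (78.9%) were called higher and none lower, against 4.96% and 5.58% of all tested genes.

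Sarcomere genes were called higher more often than lower. Of 41 listed sarcomere and contraction genes 25 passed the filter (median log2 fold change 0.52). Of these, 10 (40%) were called higher and 2 (8%) lower, against 4.96% and 5.58% of all tested genes. The 16 that did not pass the filter, which include the fast myosin light chain Myl1, had no more than 8 counts in either S9-SCA-1+ sample. Mybpc1, the slow myosin-binding protein C, rose the most, at 111 and 110 CPM against 1.02, 0.865 and 0.399 CPM (log2 fold change 7.14 ± 0.31; edgeR adjusted p = 1.3e-09). Tpm2, β-tropomyosin, rose from 21.1, 20.6 and 21.7 CPM to 176 and 179 CPM (log2 fold change 3.07 ± 0.12), and Tnnt1, slow troponin T, from 0.610, 0.602 and 0.747 CPM to 5.35 and 7.19 CPM (log2 fold change 3.26 ± 0.42). Ttn, which encodes the giant protein titin, was at 3.11 and 2.81 CPM against 0.285, 0.940 and 0.349 CPM, and Actc1, cardiac α-actin, was at 1.05 and 1.25 CPM against 0.0407, 0.263 and 0.149 CPM. Per kilobase of exon, the mean level in S9-SCA-1+ cells was 53.4 CPM for Tpm2, 27.8 CPM for Mybpc1 and 0.0284 CPM for Ttn. Ldb3 and Tnnt3 were the called members on the lower side, both below 1 CPM in every sample, and neither stayed called without replicate 2.

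The genes of the neuromuscular junction and of fusion moved in both directions. Of 25 listed, 18 passed the filter, 9 (50%) were called higher and 2 (11.1%) lower (median log2 fold change 1.18). All tested genes gave 4.96% and 5.58%. The acetylcholine receptor of fetal muscle is built from the products of Chrna1, Chrnb1, Chrnd and Chrng. Chrng was at 1.54 and 0.712 CPM and Chrnd at 1.96 and 2.53 CPM, with at most 3 counts of either in each S9-Pαhi sample, and Chrnb1 was at 3.50 and 4.17 CPM against 0.244, 0.0752 and 0.0996 CPM (log2 fold change 4.72 ± 0.63; edgeR adjusted p = 6e-05). Chrna1, whose product carries most of the acetylcholine-binding surface, ran the other way, at 0.245 and 0.534 CPM against 2.40, 1.58 and 1.64 CPM (log2 fold change -2.26 ± 0.42; edgeR adjusted p = 0.0011). Chrna1 was thus the only subunit of the 4 that was lower, and its groups did not overlap. Cdh15, M-cadherin, was at 33.1 and 34.9 CPM against 0.935, 0.715 and 0.498 CPM (log2 fold change 5.54), and Rapsn, the clustering protein of the receptor, at 1.26 and 0.748 CPM with at most 3 counts in each S9-Pαhi sample. Dmd, dystrophin, was lower, at 7.49 and 7.30 CPM against 23.9, 24.3 and 29.8 CPM (log2 fold change -1.81 ± 0.15).

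The promoters of 3 receptor subunit genes and of the sarcomere gene Mybpc1 are shown because these muscle genes moved in different directions, Chrna1 alone being lower. No promoter of Chrnd was available. Each runs 5′ to 3′ over 300 bases, from 250 before to 50 after the transcription start (RefSeq, GRCm38.p6), with the E-box CAGCTG and the MEF3 motif TCAGGTTTC in capitals. The positions are chr1:87205561-87205860 on the plus strand for Chrng, and on the minus strand chr11:69795888-69796187 for Chrnb1, chr2:73580289-73580588 for Chrna1 and chr10:88605103-88605402 for Mybpc1.
Chrng: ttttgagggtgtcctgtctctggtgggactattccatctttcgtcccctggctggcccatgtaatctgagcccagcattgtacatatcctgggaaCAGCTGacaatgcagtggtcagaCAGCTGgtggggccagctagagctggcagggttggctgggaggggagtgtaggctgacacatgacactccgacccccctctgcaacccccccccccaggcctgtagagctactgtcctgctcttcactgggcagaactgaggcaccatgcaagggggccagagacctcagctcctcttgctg
Chrnb1: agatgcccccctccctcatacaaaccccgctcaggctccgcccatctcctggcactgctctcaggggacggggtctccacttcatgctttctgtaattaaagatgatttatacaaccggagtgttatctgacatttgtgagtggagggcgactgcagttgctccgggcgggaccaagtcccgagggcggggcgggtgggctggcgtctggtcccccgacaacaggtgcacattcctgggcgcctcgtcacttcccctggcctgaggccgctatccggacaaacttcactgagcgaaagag
Chrna1: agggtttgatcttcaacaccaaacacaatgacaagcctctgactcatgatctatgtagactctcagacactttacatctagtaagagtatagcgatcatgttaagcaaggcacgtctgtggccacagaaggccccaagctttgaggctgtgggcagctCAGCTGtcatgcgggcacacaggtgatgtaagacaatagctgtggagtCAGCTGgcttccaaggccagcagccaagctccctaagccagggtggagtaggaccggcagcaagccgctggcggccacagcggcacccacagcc
Mybpc1: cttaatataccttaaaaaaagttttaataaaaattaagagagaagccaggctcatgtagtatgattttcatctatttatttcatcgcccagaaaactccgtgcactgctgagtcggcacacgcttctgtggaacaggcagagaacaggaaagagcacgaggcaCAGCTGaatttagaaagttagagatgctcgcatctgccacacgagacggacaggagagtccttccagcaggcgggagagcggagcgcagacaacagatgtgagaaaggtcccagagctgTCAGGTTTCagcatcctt

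CAGCTG is a sequence bound by the MYOD family, and both motifs were searched on both strands; the letters of the motifs do not overlap. Chrng (higher) and Chrna1 (lower) held 2 copies of CAGCTG each, Mybpc1 held 1 CAGCTG and 1 MEF3 motif, and Chrnb1 held neither. Other forms of the E-box were not searched. The promoter table held 14909 promoters of 11743 of the 15125 tested genes, some with several, and those of 550 of the 750 higher and 595 of the 844 lower genes. CAGCTG was in 157 of 742 (21.2%) promoters of genes called higher, in 126 of 772 (16.3%) of those called lower and in 15.7% of all of them. The MEF3 motif was in 5, 4 and 58 of these promoters, respectively, or 0.674%, 0.518% and 0.389%. A match is a description of the letters in the window and not of a bound site.

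The highest rises beyond the known myogenic regulators were in transcription factors, enzymes and receptors. Sp5, a WNT-responsive zinc finger factor, was at 84.6 and 87.2 CPM against 0.163, 0.226 and 0.149 CPM (log2 fold change 8.84 ± 0.56; edgeR adjusted p = 4e-08). Adamts16, a secreted metalloprotease, was at 111 and 103 CPM against 0.325, 0.263 and 0.0996 CPM (log2 fold change 8.78 ± 0.29; edgeR adjusted p = 1.9e-10). Hpgd, which inactivates prostaglandins, was at 65.0 and 54.2 CPM against 0.122, 0.602 and 0.249 CPM (log2 fold change 7.46 ± 0.44). In each of these both S9-SCA-1+ samples were far above the highest S9-Pαhi sample, where the naming rule itself required no overlap. Others of the 15 with the largest change were Wnt16 (7.30), the complement receptor gene Cr2 (7.22), Lurap1l (6.96), Ppp1r16b (6.88), Slit1 (6.55), the GABA receptor subunit gene Gabra2 (6.46) and the forkhead gene Foxd2 (6.30), each with its log2 fold change, and all stayed called without either S9-SCA-1+ sample. The homeobox gene Uncx (8.57 and 6.09 CPM) and the tachykinin receptor gene Tacr3 (11.2 and 11.6 CPM) had at most 3 counts in each S9-Pαhi sample. By level, Atp2b1, a plasma membrane calcium pump (578 and 552 CPM against 144, 155 and 155 CPM), and Tubb2b, a β-tubulin (380 and 375 CPM against 34.8, 31.6 and 38.3 CPM), were among the 10 highest called genes.

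Several more factors and enzymes stood out and were chosen after their values were seen. Sim2, a bHLH-PAS factor, was at 364 and 339 CPM against a mean of 6.33 ± 4.06 CPM (SD, n = 3) with a lowest sample of 2.39 CPM (log2 fold change 5.78 ± 0.70; edgeR adjusted p = 2.6e-05), and its paralogue Sim1, a member of the somite list, at 9.27 and 9.33 CPM against 0.244, 0.113 and 0.0996 CPM (log2 fold change 5.87 ± 0.64). Tead4, a nuclear partner of YAP, was at 13.1 and 14.6 CPM against 0.407, 0.414 and 0.399 CPM, and Pygm, muscle glycogen phosphorylase, at 33.8 and 29.7 CPM against 0.732, 0.790 and 0.399 CPM. Six2 was at 79.8 and 68.4 CPM against 6.06, 4.06 and 2.99 CPM, and Rbm24, a muscle splicing factor, at 18.4 and 22.8 CPM against 2.24, 1.54 and 1.64 CPM. All of these were called. The groups did not overlap for any of them, but genes that stood out were chosen, and 54% of all tested genes showed no overlap.

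**Figure D3:**
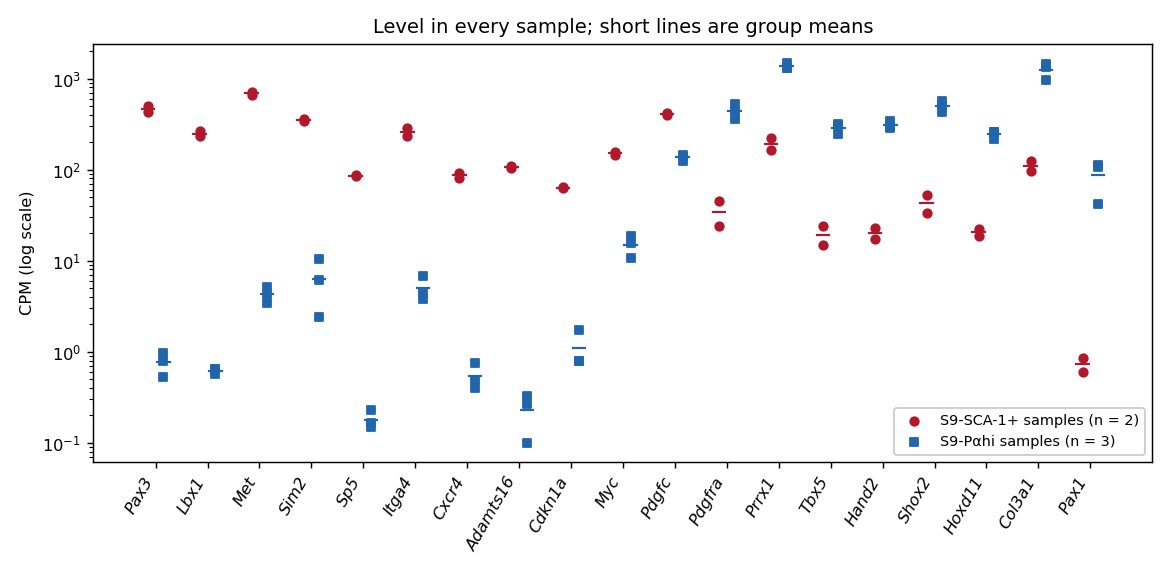
Level of 19 genes in each of the 2 S9-SCA-1+ samples (red circles) and 3 S9-Pαhi samples (blue squares), in CPM on a log scale, with short lines at the group means. The genes were picked for display, and the groups overlap for none of them, as for 54% of all tested genes. Pax1 in S9-Pαhi replicate 3 (42.4 CPM against 112 and 108 CPM) lies apart from its group.

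Genes of the somite and dermomyotome were the listed group with the largest share of higher calls apart from the known myogenic genes and the red blood cell markers. Of those tested 56.5% were higher and 26.1% lower, against 4.96% and 5.58% of all tested genes. Of 27 listed, 23 were tested, 13 were called higher and 6 lower (median log2 fold change 3.08), and the counts were the same without either S9-SCA-1+ sample. Tcf15, a bHLH factor of the epithelial somite, was at 83.3 and 68.5 CPM against 7.6, 6.24 and 4.78 CPM (log2 fold change 3.6), and Foxd2 at 65.9 and 64.4 CPM against 0.854, 0.602 and 1.05 CPM. The list shares Pax3 and Pax7 with the known myogenic genes. Among its lower members were Zic2 and Zic5 (log2 fold changes -2.66 and -2.96), zinc finger genes of the dorsal somite and neural tube, and Pax1, known from the sclerotome and the limb girdles, at 0.595 and 0.855 CPM against 112, 108 and 42.4 CPM (log2 fold change -6.91 ± 1.19; edgeR adjusted p = 0.00063).

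Among the genes of migration and guidance, the chemokine receptors were higher in S9-SCA-1+ cells and the ligand of MET was lower. Cxcr4 was at 81.0 and 91.9 CPM against 0.488, 0.752 and 0.399 CPM (log2 fold change 7.26 ± 0.44; edgeR adjusted p = 2.5e-08), and Ackr3, the scavenging receptor for the same ligand, at 48.3 and 49.1 CPM against 7.48, 5.72 and 5.63 CPM (log2 fold change 2.95 ± 0.29). Their ligand gene Cxcl12 was at 50.4 and 41.9 CPM against 68.0, 63.7 and 41.1 CPM, where the groups overlapped and no call was made (log2 fold change -0.32 ± 0.28; edgeR adjusted p = 0.46). Hgf, the ligand of MET, was at 3.81 and 2.78 CPM against 34, 35.4 and 26.3 CPM (log2 fold change -3.27 ± 0.27; edgeR adjusted p = 5.9e-07), the reverse of Met. Over the whole migration and guidance list of 48 tested genes, 7 (14.6%) were called higher and 14 (29.2%) lower (median log2 fold change -0.52). Both shares were above those of all tested genes, 4.96% and 5.58%. Slit1, Epha5 (3.09) and Sema3c (2.71) were higher, whereas Plxna4 (-3.12), Robo2 (-2.50), Dcc (-2.11) and Nrp1 (-2.11), receptors for semaphorins, SLITs and netrin, were lower.

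The PDGF ligand genes Pdgfa and Pdgfc were higher and Pdgfd and the PDGF receptor genes lower in S9-SCA-1+ cells, whereas a GDNF receptor gene and its ligand gene were both higher. Pdgfc was at 402 and 422 CPM against 142, 145 and 126 CPM (log2 fold change 1.58 ± 0.10; edgeR adjusted p = 6.5e-08), and Pdgfa, of whose exons 26.1% overlap an antisense gene, at 11.8 and 12.4 CPM against 1.10, 0.602 and 0.797 CPM (log2 fold change 3.85 ± 0.39). Pdgfd was lower, at 0.560 and 0.748 CPM against 1.55, 1.5 and 2.49 CPM (log2 fold change -1.48 ± 0.29; edgeR adjusted p = 0.0017). The receptors were lower, Pdgfra as given above and Pdgfrb at 100 and 75 CPM against 251, 272 and 275 CPM (log2 fold change -1.60 ± 0.13). Gfra1, the binding receptor for GDNF, was at 90.7 and 98.7 CPM against 3.86, 4.10 and 3.14 CPM (log2 fold change 4.67 ± 0.20), and Gdnf itself, chosen after its values were seen, at 69.4 and 70.6 CPM against 9.43, 4.96 and 6.08 CPM (log2 fold change 3.36 ± 0.55). Ret, their signalling partner, stayed below 1 CPM (0.595 and 0.570 CPM against 0.325, 0.0752 and 0.149 CPM) and its call was lost without either S9-SCA-1+ sample. Of the 30 tested genes of this list 9 were called higher and 5 lower (median log2 fold change -0.04), and 5 were called higher without S9-SCA-1+ replicate 2. With all samples 30% of this list was higher and 16.7% lower, against 4.96% and 5.58% of all tested genes. Gfra3 was at 0.0350 and 0.0356 CPM against 2.81, 2.33 and 2.39 CPM, and Ntrk2, the BDNF receptor, at 0.350 and 0.214 CPM against 7.20, 4.74 and 2.94 CPM.

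In the FGF pathway 4 of 34 tested genes (11.8%) were higher and 6 (17.6%) lower, against 4.96% and 5.58% of all tested genes. The FGF list had a median log2 fold change of -0.30. Fgfr4, which is also a known myogenic gene, was at 11.2 and 12.6 CPM against 1.14, 1.02 and 0.697 CPM (log2 fold change 3.63), and the ligand Fgf9 at 12.4 and 12.3 CPM against 0.813, 1.05 and 0.448 CPM (log2 fold change 3.96). Fgf5 (3.12) and Fgf8 (3.30, at 1.40 and 1.99 CPM) were the other higher ligands. Fgfr2 was lower, at 15.6 and 11.9 CPM against 100, 104 and 68.8 CPM (log2 fold change -2.73), and so were Fgf10, the mesenchymal ligand that drives limb outgrowth (-1.88), and the feedback inhibitor Spry1 (-2.30, with 24.4% antisense overlap). Fgf1 had 0 counts in both S9-SCA-1+ samples and 0.0996 to 0.163 CPM in the S9-Pαhi samples, and its call was lost without either S9-SCA-1+ sample.

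In the BMP and TGF-β pathway 5 of 54 tested genes were higher and 14 lower (median log2 fold change -0.37). That is 9.26% and 25.9%, against 4.96% and 5.58% of all tested genes. The higher genes included the secreted antagonists Fst, follistatin, at 8.92 and 8.94 CPM against 0.366, 0.263 and 0.199 CPM (log2 fold change 4.97 ± 0.40), and Nog, noggin, at 8.15 and 6.98 CPM against 1.67, 1.65 and 0.996 CPM (2.37). Mstn, the inhibitor of muscle growth, was at 2.83 and 3.56 CPM with at most 3 counts in each S9-Pαhi sample. Among the lower genes were several ligands. Bmp7 was at 34 and 27.4 CPM against 113, 114 and 124 CPM (log2 fold change -1.93), Bmp2 at 1.15 and 1.14 CPM against 9.12 ± 4.79 CPM (SD, n = 3), from 3.79 to 13.1 CPM (-3.00), and Gdf5 (-2.82, with 40.3% antisense overlap), Gdf6 (-3.20) and Gdf7 (-3.60) were below their S9-Pαhi levels as well. Id1, a transcriptional target of BMP signalling, was at 33.2 and 37.5 CPM against 136, 137 and 113 CPM (-1.86).

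Among 53 tested WNT pathway genes 7 (13.2%) were higher and 13 (24.5%) lower (median log2 fold change -0.19). Over all tested genes the shares were 4.96% and 5.58%. The ligands Wnt16, at 47.0 and 38.4 CPM against 0.447, 0.188 and 0.149 CPM, and Wnt6, at 1.43 and 1.03 CPM against 0.163, 0.0752 and 0.0498 CPM, were higher. So were the R-spondin receptor genes Lgr5, at 45.5 and 37.1 CPM against 1.46, 2.78 and 1.54 CPM (log2 fold change 4.4 ± 0.23), and Lgr6, at 2.24 and 1.92 CPM against 0.813, 0.188 and 0.199 CPM, though Lgr6 was not called without S9-SCA-1+ replicate 2 or S9-Pαhi replicate 2. Among the lower genes were the R-spondin ligand genes Rspo1, Rspo3 and Rspo4. Rspo1 was at 0.210 and 0.214 CPM against 10.7, 6.36 and 5.78 CPM (-5.14). Rspo3 was at 2.52 and 1.53 CPM against 30.5, 27.4 and 26.0 CPM (-3.78). Rspo4 was at 12.4 and 7.98 CPM against 94.9, 91.2 and 128 CPM (-3.36). For Rspo3, 13.1% of its exons overlap an antisense gene. The antagonists Dkk1 (1.43 and 1.35 CPM against 24.8, 26.8 and 23.8 CPM) and Wif1 (-3.24) and the ligands Wnt5a (-2.31) and Wnt11 (-2.65) fell.

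Of 27 tested NOTCH pathway genes 6 (22.2%) were higher and 2 (7.41%) lower, against 4.96% and 5.58% of all tested genes. The NOTCH list had a median log2 fold change of 0.12. Lfng, a glycosyltransferase that modifies NOTCH, was at 13.3 and 11.7 CPM against 0.203, 0.376 and 0.548 CPM (log2 fold change 5.07 ± 0.32), the ligand Dll1, with 19.9% antisense overlap, at 7.94 and 7.69 CPM against 0, 0.639 and 0.0996 CPM (4.88 ± 1.15), and the target Heyl at 3.15 and 2.85 CPM against 0.529, 0.451 and 0.0996 CPM (3.00). Nrarp (2.67) was higher too, but 79.4% of its exons overlap an antisense gene. The general targets Hes1 (0.53) and Hey1 (0.89) did not reach the fold limit. Dlk1, an imprinted ligand of the same family, was lower, at 43.7 and 43.8 CPM against 332, 283 and 278 CPM (-2.77 ± 0.34).

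Hedgehog and retinoic acid genes were called lower more often than higher. Of 21 tested hedgehog genes 1 (4.76%) was higher and 3 (14.3%) lower (median log2 fold change -0.41). Of 17 retinoic acid genes 2 (11.8%) were higher and 6 (35.3%) lower (-0.35). The shares over all tested genes were 4.96% and 5.58%. Shh, the polarising signal, was at 1.64 and 2.42 CPM against 19, 13.7 and 15.5 CPM, with 28.3% of its exons overlapping an antisense gene. The pathway targets Ptch1, at 64.4 and 61.4 CPM against 104, 97.9 and 88.9 CPM (-0.63; edgeR adjusted p = 0.0026), and Gli1, at 45.4 and 45.6 CPM against 72.8, 54.4 and 54.5 CPM (-0.41; edgeR adjusted p = 0.22), lay short of the fold limit. Hhip, the inhibitor that binds hedgehog ligands, was the higher member, at 10.8 and 8.33 CPM against 3.38, 2.75 and 3.09 CPM. The retinol carrier Rbp4 (3.52) rose, whereas Crabp1 (-2.96), the degrading enzyme gene Cyp26b1 (-2.48) and the receptor genes Rarb (-2.51, with 49% antisense overlap) and Rarg (-2.44) fell. The call of Aldh1a2, which makes retinoic acid, was lost without either S9-SCA-1+ sample.

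The transcription factors of the limb mesenchyme formed the largest lower group. Of those tested 70.4% were called lower and 1.85% higher, against 5.58% and 4.96% of all tested genes. Of 54 tested, 38 were called lower and 1, Zeb2, higher (median log2 fold change -2.44), and 31 and 33 stayed lower without S9-SCA-1+ replicate 2 and 3. Tbx5, the forelimb selector gene, was at 23.9 and 14.8 CPM against 306, 315 and 247 CPM (log2 fold change -3.90 ± 0.20; edgeR adjusted p = 5.3e-09). Hand2, a posterior determinant with 19.6% antisense overlap, was at 23.1 and 17.3 CPM against 346, 288 and 299 CPM (-3.95 ± 0.17), and Shox2, a proximal factor, at 52.4 and 33.3 CPM against 519, 562 and 427 CPM (-3.55 ± 0.22). Prrx1 was at 223 and 164 CPM against 1294, 1486 and 1303 CPM (-2.81 ± 0.15). Tbx2 (-4.08), Tbx3 (-3.93), Msx2 (-3.61), Lhx9 (-2.99), Lhx2 (-2.93) and Prrx2 (-2.88) were also lower, and Msx1 by less (-1.84). The lowest shares of the S9-Pαhi level were left for Pax1 (0.829%) and Emx2, a factor of the shoulder girdle (4.04%, at 0.595 and 0.605 CPM against 18.3, 12.7 and 13.5 CPM). Over the 38 lower factors the median share left was 14.9% in replicate 2 and 11.4% in replicate 3, and 27 of the 38 were higher in replicate 2. The calls of Meis1, Meis2, Irx3 and Irx5 were lost without either S9-SCA-1+ sample.

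The genes that fell the most outside this list were of mixed function. Gsc, goosecoid, was at 1.26 and 1.32 CPM against 37.0, 30.1 and 25.4 CPM (log2 fold change -4.58 ± 0.31; edgeR adjusted p = 7.9e-08), Rxfp2, a relaxin family receptor, at 0.105 and 0.249 CPM against 4.15, 7.15 and 4.04 CPM (-4.82 ± 0.91), and Pkdcc, a secreted kinase needed for long bone growth, at 41.6 and 24.8 CPM against 671, 585 and 496 CPM (-4.14 ± 0.61). AW549542 (-5.15), Plcl1 (-4.13) and Tmem200b (-4.01) were lower by similar amounts. The rule that named these genes required that the groups did not overlap. The called lower genes with the highest levels changed less. Gpc3, a heparan sulfate proteoglycan of the cell surface, was at 598 and 534 CPM against 1438, 1503 and 1461 CPM (-1.37 ± 0.12), Capn6 at 375 and 345 CPM against 1200, 1248 and 1298 CPM (-1.80 ± 0.11), and Asb4 at 362 and 341 CPM against 900, 970 and 1126 CPM (-1.51 ± 0.11). Scube1, a secreted protein with a role in hedgehog release, was at 76.1 and 47.7 CPM against 616, 663 and 593 CPM (-3.33 ± 0.20), and Twist1, a bHLH factor of the mesenchyme, at 124 and 116 CPM against 636, 573 and 579 CPM (-2.32 ± 0.16).

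The lower genes as a whole showed the same difference between the S9-SCA-1+ samples. Their median ratio of replicate 2 to replicate 3 was 1.15, with 537 of 844 higher in replicate 2, whereas the ratio was 0.994 for the higher genes and 1 for all tested genes. Pdgfra and Sox9 had 44.8 and 14.7 CPM in replicate 2 and 24.0 and 7.41 CPM in replicate 3.

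**Figure D4:**
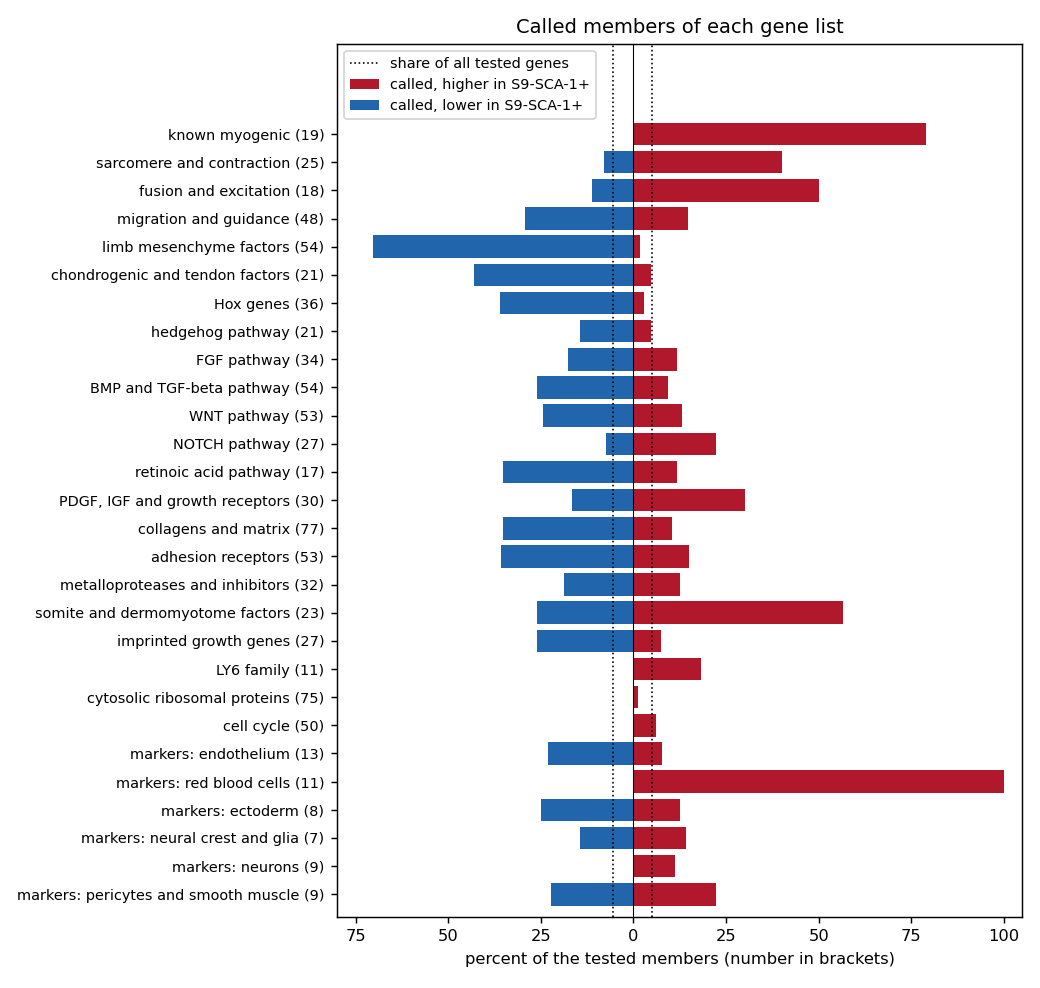
Percent of the tested members of each gene list (number tested in brackets) that were called higher (red, to the right) or lower (blue, to the left) in S9-SCA-1+ cells, with dotted lines at the shares over all tested genes (4.96% and 5.58%). Limb mesenchyme factors had 38 of 54 members lower, somite and dermomyotome factors 13 of 23 higher, and red blood cell markers 11 of 11 higher, of which 1 was still called without S9-SCA-1+ replicate 3.

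Of 36 tested HOX genes 1 (2.78%) was higher and 13 (36.1%) lower, against 4.96% and 5.58% of all tested genes. The HOX list had a median log2 fold change of -0.86, and without S9-Pαhi replicate 3 there were 3 higher, among them Hoxc10. All 6 tested genes from Hoxd8 to Hoxd13 were lower, from Hoxd8 at 17.4 and 18.5 CPM against 59.6, 56.7 and 77.4 CPM (log2 fold change -1.85 ± 0.16) to Hoxd12 at 5.70 and 3.56 CPM against 85.1, 68.6 and 73.2 CPM (-4.03 ± 0.26). At the other end of the cluster Hoxd3 (-0.57) and Hoxd4 (-0.30), of whose exons 66.7% and 52.3% are shared with another gene on the same strand, were not called and Hoxd1 was higher, at 3.43 and 4.17 CPM against 0.651, 0.639 and 0.747 CPM (2.48 ± 0.53). No Hoxa gene was called. Hoxa9 was at 218 and 220 CPM against 204, 206 and 255 CPM (-0.02 ± 0.13) and Hoxa10 at 295 and 272 CPM against 249, 249 and 288 CPM (0.11 ± 0.11). Hoxa11 was at 271 and 243 CPM against 132, 131 and 180 CPM without overlap, but short of the fold limit (0.80 ± 0.17; edgeR adjusted p = 0.0026), and 35% of its exons overlap an antisense gene. Hoxc4, Hoxc5, Hoxc6 and Hoxc8 were lower (-3.55, -4.38, -3.13 and -2.47), Hoxc8 not without S9-SCA-1+ replicate 3. Hoxb5, Hoxb6 and Hoxb1, which had 0 counts in both S9-SCA-1+ samples against 0.548 to 1.05 CPM, were lower, and all 3 calls were lost without either S9-SCA-1+ sample.

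**Figure D5:**
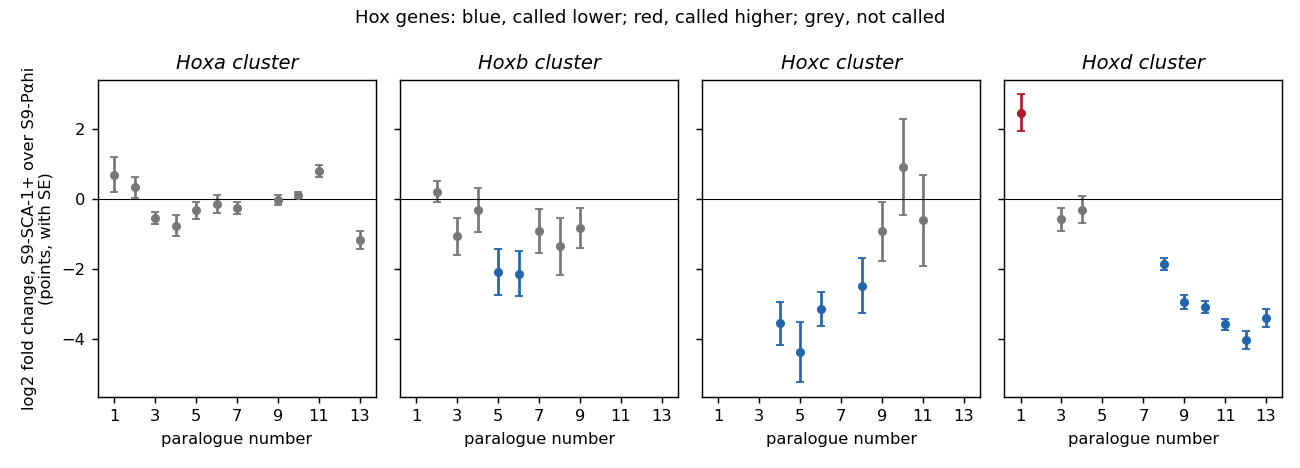
Log2 fold change of S9-SCA-1+ over S9-Pαhi (points, with SE) for the tested Hox genes by cluster and paralogue number, in blue where called lower, in red where called higher and in grey where not called. Hoxb1, with 0 counts in both S9-SCA-1+ samples, is not drawn, and the Hoxd panel falls from 2.48 for Hoxd1 to -4.03 for Hoxd12 while the Hoxa panel stays between -1.16 and 0.80.

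Cartilage and tendon factors were lower in 9 (42.9%) of 21 tested cases and higher in 1 (4.76%), with a median log2 fold change of -0.83. Of all tested genes 5.58% were lower and 4.96% higher. Sox9 itself was gated. Runx2, the osteoblast factor, was at 3.39 and 2.53 CPM against 39.8, 33.8 and 14.4 CPM (log2 fold change -3.31 ± 0.50), and Sox5 at 10.8 and 8.01 CPM against 31.5, 39.3 and 38.4 CPM (-1.95 ± 0.18). Foxc2, a forkhead factor of the paraxial mesoderm, was the higher member, at 11.1 and 9.08 CPM against 0.935, 1.13 and 1.54 CPM (3.08 ± 0.32).

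Matrix genes were called lower more often than higher, and in both directions more often than all tested genes. Of 77 tested collagen and matrix genes 8 (10.4%) were higher and 27 (35.1%) lower, against 4.96% and 5.58% (median log2 fold change -0.47). Col3a1 was at 125 and 96.7 CPM against 1333, 1460 and 964 CPM (-3.50 ± 0.25) and Col1a2 at 260 and 186 CPM against 1063, 1139 and 767 CPM (-2.15 ± 0.19). Hapln1, the hyaluronan link protein (-4.30), and Thbs2 (-3.54) were lower as well. The higher matrix genes included basement membrane components, namely Lama5, laminin α5, at 99.6 and 86.9 CPM against 19.8, 26.8 and 25.4 CPM (1.96 ± 0.14), and Col4a6 at 10.0 and 8.58 CPM against 0.935, 2.03 and 0.947 CPM (2.81 ± 0.40), while Lama4 (-1.76), also of basement membranes, was lower, as was Nid1 (-1.30), though not without S9-Pαhi replicate 3. Col13a1, a transmembrane collagen of muscle and its junctions, was at 31.7 and 33.6 CPM against 5.12, 3.38 and 3.89 CPM (2.98 ± 0.26).

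Of 53 tested adhesion receptors 8 (15.1%) were higher and 19 (35.8%) lower (median log2 fold change -0.80). Both shares exceeded those of all tested genes, 4.96% and 5.58%. Itga4, the α4 integrin, was at 232 and 284 CPM against 3.78, 4.48 and 6.73 CPM (log2 fold change 5.70 ± 0.21; edgeR adjusted p = 3.7e-10). The protocadherin genes Pcdh17 (227 and 212 CPM against 10.1, 16.1 and 10.9 CPM) and Pcdh19 (266 and 226 CPM against 46.6, 62.4 and 55.1 CPM) rose, and Pcdh8 (-2.40, with 10.9% antisense overlap), Cdh6 (-2.74), Cdh10 (-3.43) and Alcam (-2.92) fell, Pcdh8 not without S9-SCA-1+ replicate 3. Of 32 metalloproteases and inhibitors 4 were higher, namely Adamts16, Mmp9, Adamts17 (93.7 and 82.8 CPM against 7.24, 6.51 and 5.53 CPM) and Adam12 (2.96), and 6 lower, of which Adamts2 (-3.60) and Adamts18 (-3.18) changed most (median -0.12). For this list the shares were 12.5% higher and 18.8% lower, against 4.96% and 5.58% of all tested genes.

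Of 50 tested cell cycle genes, 3 (6%) were called higher and none lower (median log2 fold change -0.01). The shares over all tested genes were 4.96% and 5.58%. At the adjusted p limit alone 9 cell cycle genes were higher and 5 lower, where 15.2% of all tested genes pass in each direction and 30.5% in either. Cdkn1a, the CDK inhibitor p21, was at 62.7 and 64.3 CPM against 1.71, 0.790 and 0.797 CPM (5.84 ± 0.34; edgeR adjusted p = 1.8e-08). The p53 targets Mdm2 (0.05) and Ccng1 (-0.12), chosen after their values were seen, were not called. Whether p53 had a part in the level of Cdkn1a was not tested. Myc was at 144 and 157 CPM against 15.8, 10.7 and 18.5 CPM (3.33 ± 0.26), while Mki67, a marker of cycling cells, was at 581 and 535 CPM against 564, 812 and 625 CPM (-0.26 ± 0.19; edgeR adjusted p = 0.39). Ccnd1, cyclin D1, was at 181 and 162 CPM against 310, 265 and 326 CPM, short of the fold limit (-0.81 ± 0.14), with 29.4% antisense overlap. Cdkn2b, the remaining call (0.0700 and 0.463 CPM), was lost without S9-SCA-1+ replicate 3 and without S9-Pαhi replicate 1 or 2.

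Imprinted growth genes were lower in 7 (25.9%) of 27 tested cases and higher in 2 (7.41%), with a median log2 fold change of -0.22. Of all tested genes 5.58% were lower and 4.96% higher. Plagl1 was at 173 and 158 CPM against 21.8, 27.0 and 29.4 CPM (2.67 ± 0.25). Peg3 was at 498 and 441 CPM against 1379, 1695 and 1446 CPM (-1.68 ± 0.16), and Dlk1, Rtl1 (-3.19), Usp29 (-2.14, with 19% antisense overlap) and Zim1 (-2.13) were lower with it. Igf2 was at 3820 and 3267 CPM against 5587, 5421 and 5629 CPM, short of the fold limit (-0.65 ± 0.20), and 65.3% of its exons are shared with another gene on the same strand. Of the 11 tested LY6 family genes Ly6a and Lypd1 (18.2%) were higher and none lower, against 4.96% and 5.58% of all tested genes. The call of Lypd1 (17.1% antisense overlap) was lost without S9-SCA-1+ replicate 2 or S9-Pαhi replicate 3. Of 75 cytosolic ribosomal protein genes 1 (1.33%), Rpl21, was called higher and none lower, against 4.96% and 5.58% of all tested genes. The list had a median log2 fold change of 0.29. Rpl21 was at 14.7 and 31.5 CPM against 10.9, 4.96 and 13.3 CPM, and was not called without S9-SCA-1+ replicate 3 or S9-Pαhi replicate 2.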

How the data were processed

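RNA-seq counts per gene were analysed for 2 S9-SCA-1+ and 3 S9-Pαhi samples, with the other 9 samples of the series in the same fit. Per the study's methods, the authors made the deposited counts from single-end reads of poly(A)+ RNA, aligned with STAR to mm10 and counted per gene with QuasR. A read with several hits was kept at 1 of them, so paralogues such as the globin pairs Hba-a1 and Hba-a2 share reads. Whether the libraries mark strand and whether counting used it are not given in the sources used here, so reads of antisense partners may be mixed. An overlap of exons with another gene is given where it exceeds 10%. The table holds no column of the authors' own comparisons, and 0 columns of per-sample values were left unused.

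Entrez identifiers were matched to RefSeq symbols of GRCm38 (24374 of 24454, the rest holding 0.358% of counts). Counts were normalised by TMM and tested with edgeR 4.0.16 (R 4.3.3), by the quasi-likelihood F test on 1 fit over all 14 samples, after filterByExpr with a minimum count of 10. P-values were adjusted by Benjamini-Hochberg over the 15125 tested genes. CPM use TMM-scaled totals, and the SE of a log2 fold change is |log2 fold change| / sqrt(F). The 5 samples held 20644076 to 29162751 counts, where 3 counts correspond to 0.105 to 0.149 CPM, and the common biological coefficient of variation was 13.4%. Such floors cover counting error only. Genes with at most 3 counts in each sample of the lower population are given without a fold change. On simulated counts for this comparison (14799 genes), 55 of 61 genes changed by a log2 fold change of 1.5, 71 of 71 by 2 and 68 of 68 by 3 were called, with 1 false call. The changed genes were drawn only from those with a mean above 5 CPM over all samples, so recovery at lower levels was not tested.

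The members and the gene lists were chosen with earlier results of these data known. Genes were named by rule: the markers of the populations and the gated antigens, in each direction the 15 called genes with the largest change (mean of at least 5 CPM where higher, no overlap, known myogenic genes left out) and the 10 with the highest level, and up to 5 called members per list and direction. Beyond the rule, members of the lists, their partners (Gdnf, Mdm2, Ccng1) and Sim2, Six2, Tead4, Pygm, Rbm24, Pitx1, Hoxc10 and Cxcl5 were chosen after their values were seen. Alternatives were DESeq2 1.42.0, other normalisations, filters, thresholds and fits, a replicate block, and leaving out each sample.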

Additional observations from a re-analysis of the deposited data

How the results depend on the processing

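The counts of 1594 called genes (750 higher, 844 lower) and of 320 called list members stayed within 1.5 times of these under other scalings, tests, fits, tighter adjusted p limits and the loss of any 1 of the 5 samples (1331 to 1554 called, 641 to 721 higher, 690 to 841 lower), and with no filter on low counts. With a minimum count of 50, where fewer genes were tested, the count of higher genes fell to 475, and the other counts stayed within 1.5 times. The counts also moved with the fold limit. With no limit on the log2 fold change 4606 genes passed, 2303 in each direction, and 492 list members, and with a limit of 2 there were 915, 471 higher and 444 lower (list members within 1.5 times). Samples were not paired by replicate number here, and the labels do not say whether samples of equal number share embryos. The populations share only 2 numbers, and the correlation of their deviations was 0.11 over 11179 genes. With so few numbers this cannot decide whether the samples are paired. A fit with the replicate block called 1588 genes, 749 higher and 839 lower, where Bmpr1b fell below the fold limit (1.19) and Hoxa13 passed it (-1.24).

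Of 250 named genes, 30 lost their call without S9-SCA-1+ replicate 3, 20 without S9-SCA-1+ replicate 2, and 7, 10 and 4 without S9-Pαhi replicates 1, 2 and 3. The lone S9-SCA-1+ sample is then assumed to vary like the other groups. The direction turned for 3 genes that were not called. Over the loss of each sample in turn, log2 fold changes ran from -1.57 to 1.66 for Pitx1 and from -0.07 to 0.09 for Hoxa9, where the loss of S9-Pαhi replicate 3 turned the sign, and from -0.05 to 0.15 for Mdm2, which turned without S9-SCA-1+ replicate 3 (-0.05) or S9-Pαhi replicate 3 (-0.03). Hoxa13 was called without S9-Pαhi replicate 2 (-1.29). The DESeq2 Wald test lost 1 call, Cdkn2b, and left an adjusted p of NA as such. The causes were not tested. With 2 S9-SCA-1+ samples, genes near the fold limit or below about 1 CPM are the least certain.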
